A study of Mus musculus with 7 samples.

Results

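The transcripts described here are those of 10 protein-coding genes of the mouse mitochondrial genome: ND1, ND2, ND3, ND4, ND5, CYTB, COX1, COX2, COX3 and ATP6. They were taken by name, as rows of the count table whose symbol is written in capitals, and make up 10 of the table's 35976 gene rows. The rule itself uses names only. The mitochondrial genome has 13 protein-coding genes in the RefSeq annotation, and the other 3 (ND6, ND4L and ATP8) were also in the table and are given beside the 10 where they help.

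The 7 RNA-seq libraries came from the amygdala of male C57BL/6J mice, all of which had an adeno-associated virus (AAV) delivered there and more than 2 weeks of expression, then restraint in tubes for 7 days, fear conditioning for 1 day and fear extinction for 3 days. In 4 libraries the virus targeted the Rosa locus (sgRosa, the control) and in 3 it targeted Nr2f2 (sgNr2f2), a nuclear receptor transcription factor, with Cas9 driven by the neuronal hSyn promoter in both groups. Neurons were isolated from papain-digested tissue with a magnetic kit, and 5 ng of total RNA entered each library. There was no unstressed group, and nothing says whether a library is 1 animal or a pool, so every p-value rests on a spread among libraries that may be technical.

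The mitochondrial genome is a small circular DNA inside the organelle, read from both strands as long transcripts that are cut, mostly at the tRNAs between the genes, into separate messages. All of its protein-coding genes encode subunits of the respiratory chain and ATP synthase: the ND genes belong to complex I (NADH dehydrogenase), CYTB to complex III, the COX genes to complex IV (cytochrome c oxidase), and ATP6 and ATP8 to complex V (ATP synthase). The remaining subunits of these complexes come from the cell nucleus, and brain tissue, which depends on oxidative metabolism, is rich in mitochondrial transcripts. Pieces of mitochondrial DNA have also been copied into the nuclear chromosomes over evolution, where they are annotated as pseudogenes.

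The 10 genes fell into 2 classes by level that did not follow the complexes. CYTB, ND1, ND4, COX1, ND2 and ND5 were among the 11 most abundant genes of the whole table by mean CPM (counts relative to library size, which was scaled by TMM factors). COX2, COX3, ATP6 and ND3, which lie together between COX1 and ND4, were nearly empty. These 4 make up 24.0% of the summed length of the 10 genes and had 2823 of their 13877130 counts (0.0203%). ND3 ranked 5008 by mean CPM, and ATP6, COX3 and COX2 ranked 12138, 12335 and 14064.

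The nearly empty stretch matched a nuclear copy of the mitochondrial genome. On chromosome 1, GENCODE M21 annotates 7 unprocessed pseudogenes on the minus strand between 24611535 and 24616197 (GRCm38, the same assembly as mm10) that carry parts of COX1, COX2, ATP6, COX3, ND3, ND4L and ND4. The pairs printed here show how near to identical gene and copy are: each gives 60 bases of a mitochondrial gene and the same stretch of its nearest annotated nuclear copy, with capitals at bases that differ. The ND3 pair starts at the first base of the gene, where the only differing base of its alignment lies, and the others are from the middle of the alignment.
ND3, chrM:9459-9518, plus strand: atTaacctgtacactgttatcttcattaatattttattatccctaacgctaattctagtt
Gm28438, chr1:24613060-24613119, minus strand: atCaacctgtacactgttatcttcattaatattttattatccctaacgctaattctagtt
COX3, chrM:8968-9027, plus strand: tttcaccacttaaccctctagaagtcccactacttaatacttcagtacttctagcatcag
Gm28437, chr1:24613551-24613610, minus strand: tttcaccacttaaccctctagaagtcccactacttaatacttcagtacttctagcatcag
ATP6, chrM:8236-8295, plus strand: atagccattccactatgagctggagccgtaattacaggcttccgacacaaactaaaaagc
Gm10925, chr1:24614283-24614342, minus strand: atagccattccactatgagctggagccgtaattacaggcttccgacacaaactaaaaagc
CYTB, chrM:14687-14746, plus strand: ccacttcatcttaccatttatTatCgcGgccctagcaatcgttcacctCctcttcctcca
Gm11410, chr4:80004531-80004590, plus strand: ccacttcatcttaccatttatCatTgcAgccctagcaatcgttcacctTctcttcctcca

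The COX3 and ATP6 pairs had 0 differing bases, the ND3 pair 1 and the CYTB pair 4. Over the whole alignments, COX2 (681 bases), ATP6 (678 bases) and COX3 (783 bases) were 100% identical to Gm28661, Gm10925 and Gm28437, and ND3 was 99.7% identical to Gm28438 over 345 bases. CYTB was 92.9% identical to Gm11410, a pseudogene on chromosome 4. A read can be placed by its bases only where they are found in 1 place. All windows of 75 bases within each gene were therefore looked up on both strands in 141730 other annotated transcripts. The share of windows also found there was 99.9% for COX3, 99.5% for COX2 and for ATP6, and 97.8% for ND3. It was 61.5% for ND4, 39.8% for COX1, 5.71% for ND2, 1.66% for ND5, and 0% for ND1 and CYTB. The read length is not given in the sources used here, so these shares hold for the chosen 75 bases only.

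The other 3 mitochondrial genes were split in the same way, except ATP8. ND4L shared 98.7% of its windows and had 267 counts over the 7 libraries, whereas ND6, a complex I gene on the opposite strand, shared 0% and had 293370. ATP8 had 33 counts although 0% of its windows were found elsewhere. It lies between COX2 and ATP6, and the nuclear stretch between their annotated copies holds no annotated transcript and was not searched, since no genome sequence was used here. How reads that match several places were counted is not given in the sources used here, and the part of the nuclear copies in the low counts was not tested. The pseudogenes' own counts were not analysed here. Counts of COX2, COX3, ATP6 and ND3 are therefore uncertain as measures of their transcripts, and those of ND4 and COX1 may cover only a part of the gene.

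**Figure D1:**
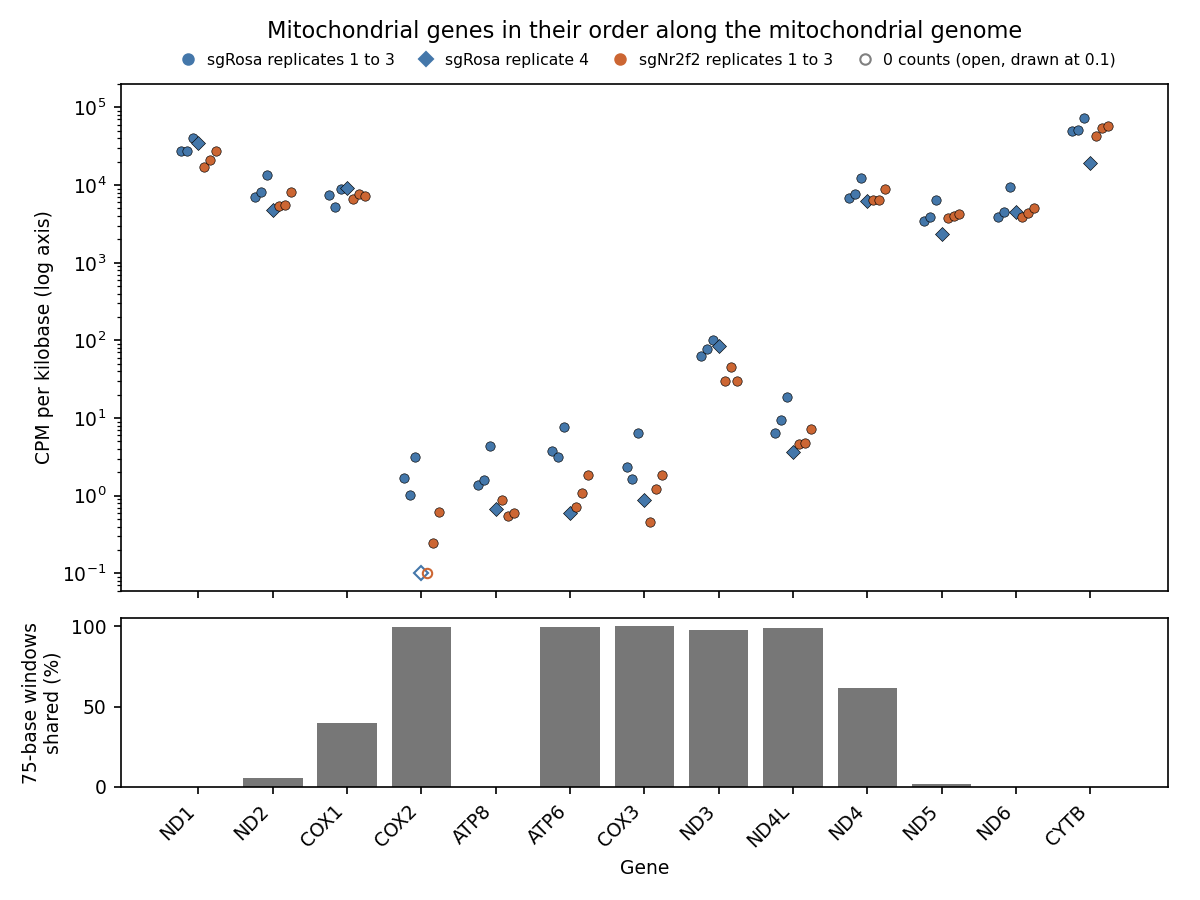
Level of each mitochondrial gene per library (upper panel, CPM per kilobase of gene, log axis, 1 point per library) and the percent of its 75-base windows also found in other annotated transcripts (lower panel), in genome order. The genes from COX2 to ND4L lie far below their neighbours, and each of them but ATP8 shares over 97% of its windows.

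Levels can be compared between genes only per length. Averaged over the 7 libraries, CYTB stood at 49837 CPM per kilobase and ND1 at 27937. ND4, ND2 and COX1 followed at 7873, 7490.4 and 7482 CPM per kilobase, with ND5 at 4038. The length used was that of the whole gene. As 61.5% of the ND4 windows and 39.8% of the COX1 windows were shared, against 5.71% for ND2, ND4 and COX1 may be understated. Their order relative to ND2 is therefore uncertain. Differences between ND4, ND2 and COX1 were not tested, and the order of ND2 and ND4 changed between libraries. ND2 stood above ND4 in sgRosa replicates 1 to 3 (7082, 8057 and 13481 against 6905, 7698 and 12363 CPM per kilobase). It stood below ND4 in the other libraries. ND3 stood at 61.9 CPM per kilobase, 65.2-fold below ND5, and ATP6, COX3 and COX2 at 2.697, 2.10 and 0.969.

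Among the complex I genes, ND1 was the most abundant. In the order of the replicate numbers, its levels were 26318, 26223, 38385 and 33483 CPM for sgRosa and 16396, 20332 and 26014 CPM for sgNr2f2. Every sgNr2f2 library lay below every sgRosa library, but sgNr2f2 replicate 3 and sgRosa replicate 2 were close. The log2 fold change of ND1 (sgNr2f2 against sgRosa, by the quasi-likelihood test of edgeR fitted on all genes) was -0.57 with an SE of 0.66 and did not pass after Benjamini-Hochberg adjustment over 14412 genes (adjusted p = 0.917).

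ND2, which encodes a membrane-arm subunit of complex I, had 7351, 8363, 13994 and 4892 CPM in sgRosa and 5651, 5789 and 8386 CPM in sgNr2f2. ND4, another membrane-arm subunit, had 9515, 10608, 17036 and 8595 CPM in sgRosa and 8826, 8934 and 12431 CPM in sgNr2f2. ND5, a further membrane-arm subunit, had 6355, 7123, 11878 and 4314 CPM in sgRosa and 6844, 7377 and 7668 CPM in sgNr2f2. In these 3 genes sgRosa replicate 3 was the highest and sgRosa replicate 4 the lowest library, so the sgNr2f2 libraries lay inside the range of the controls. Their log2 fold changes were -0.39 for ND2 (SE 0.63), -0.18 for ND4 (SE 0.62) and -0.02 for ND5 (SE 0.61).

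ND3, a small complex I subunit, was the member with the smallest p. It had 474, 506, 512 and 219 counts in sgRosa and 172, 282 and 173 in sgNr2f2, which came to 22.2, 27.4, 34.8 and 29.8 CPM against 10.4, 15.8 and 10.5 CPM. All 3 sgNr2f2 libraries were lower than all 4 sgRosa libraries. The log2 fold change was -1.22 (SE 0.38, 95% confidence interval -2.07 to -0.37), with an unadjusted p of 0.00918 and an adjusted p of 0.868 in edgeR, so it did not pass. Its counts are uncertain, since 97.8% of its windows were also found in another annotated transcript. Without sgRosa replicate 4, a choice made after seeing the data, DESeq2 called ND3 lower (log2 fold change -1.17, adjusted p = 0.0443), as it did 0.749% of all genes. Without that library edgeR (adjusted p = 0.235) and limma-voom (adjusted p = 0.283) did not call it.

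CYTB, the cytochrome b of complex III, was the most abundant member. It had 57338, 59008, 83259.6 and 21882 CPM in sgRosa and 49054, 62480.0 and 66075 CPM in sgNr2f2. sgRosa replicate 4 had less than all other libraries, which overlapped. The log2 fold change was 0.10 (SE 0.76, adjusted p = 0.990 in edgeR), and it was -0.17 without sgRosa replicate 4 and -0.07 with scaling by library size alone.

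COX1, the catalytic subunit of complex IV, had 11689, 8021, 13595 and 14253 CPM in sgRosa and 10328, 11717 and 11309 CPM in sgNr2f2. The sgNr2f2 libraries lay close together inside the range of the controls, and the log2 fold change was -0.10 (SE 0.60, adjusted p = 0.986 in edgeR). In COX1, unlike in ND2, ND4, ND5 and CYTB, sgRosa replicate 4 was the highest library and not the lowest.

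COX2, which carries the copper centre that takes electrons from cytochrome c, had 25, 13, 32 and 0 counts in sgRosa and 0, 3 and 7 in sgNr2f2. COX3, a structural core subunit, had 39, 24, 73 and 5 counts in sgRosa and 6, 17 and 24 in sgNr2f2. ATP6, the proton channel subunit of ATP synthase, had 55, 40, 77 and 3 counts in sgRosa and 8, 13 and 21 in sgNr2f2. The groups overlapped in all 3 genes. On the CPM scale sgRosa replicate 3 was the highest library in each, and for COX3 sgRosa replicate 2 (1.30 CPM) lay below sgNr2f2 replicate 3 (1.45 CPM). Their log2 fold changes were -2.35 for COX2 (SE 1.33), -1.25 for COX3 (SE 0.84) and -1.65 for ATP6 (SE 0.84), each with an edgeR adjusted p of 0.868. COX2 passed the filter on low counts only through sgRosa, where its counts were higher, and it was not tested without any of sgRosa replicates 1, 2 and 3.

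No member passed the comparison of sgNr2f2 with sgRosa. All 10 passed the filter, and edgeR called 0 of them, beside 0% of all 14412 genes tested. At an unadjusted p under 0.05 there was 1 member, ND3, on the lower side, where 2.82% of all genes were. Both ND1 and ND3 had sgNr2f2 libraries that did not overlap with sgRosa on the lower side, as did 3.9% of all genes. Of the 7 members with at least 100 counts in every library, a limit set after the data were seen, 6 had a log2 fold change below 0, against 56.2% of all genes. Their median was -0.18, against -0.11 over all genes, and -0.30 without sgRosa replicate 4. Without sgRosa replicate 3, ND4, ND5 and CYTB lay above 0. COX2, COX3 and ATP6 were left out of this count, since COX2 passed the filter only through the group where it was higher and the other 2 had few counts. A p that misses the threshold does not show that a gene did not differ, and the confidence intervals give the range of differences left for each.

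**Figure D2:**
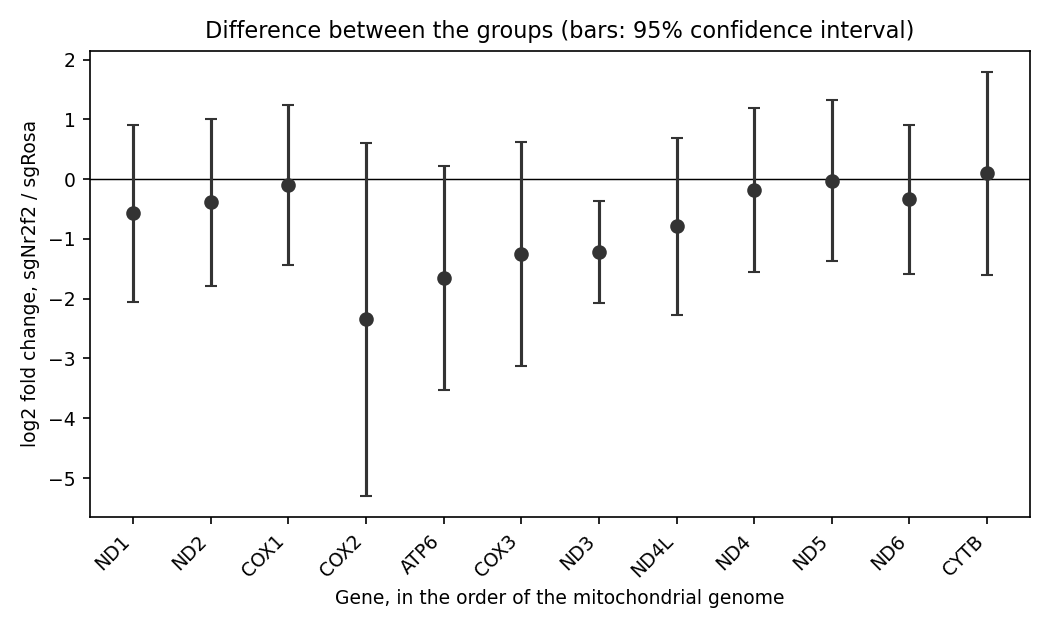
log2 fold change of sgNr2f2 against sgRosa for the 12 mitochondrial genes that passed the low-count filter, in genome order, with 95% confidence intervals from edgeR. The interval of ND3 (-2.07 to -0.37) does not reach 0 before adjustment over all genes, and those of the other genes do.

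As a share of all counts, the 10 genes took 16.5, 11.2, 14.9 and 10.3% (sgRosa, replicates 1 to 4) and 8.86, 12.6 and 10.4% (sgNr2f2, replicates 1 to 3). This came to 13.2 ± 3.00% (SD, n = 4) and 10.6 ± 1.89% (SD, n = 3), and the libraries of the groups overlapped. The difference of -2.58 percentage points, sgNr2f2 minus sgRosa, was smaller than the SD of sgRosa. On TMM-scaled CPM it was -1.07 percentage points. It ran from -3.57 to -1.48 percentage points when 1 library was left out, the latter without sgRosa replicate 1. No test was made of this sum, since the genes were chosen with earlier results known. In bulk RNA, fewer cells of a type and less RNA per cell cannot be told apart.

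**Figure D3:**
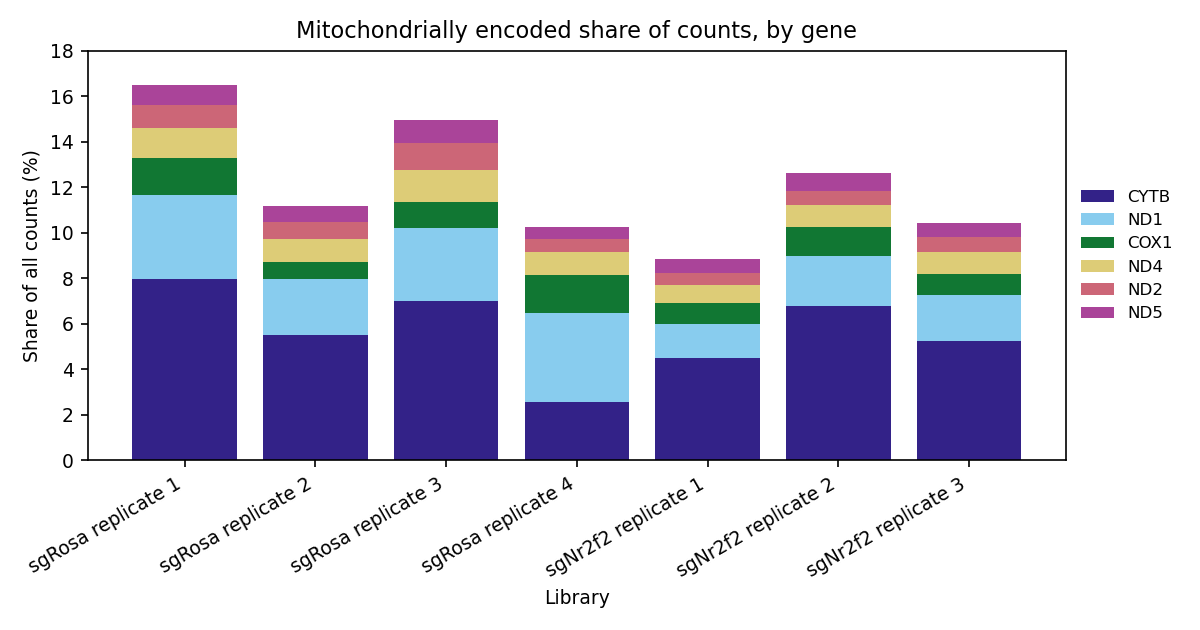
Share of all counts (percent) taken by the mitochondrial genes in each library, stacked by gene. COX2, COX3, ATP6 and ND3 are too small to draw. The stacks reach 8.86 to 16.5%, and in sgRosa replicate 4 the CYTB part is small and the ND1 part large.

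Within the mitochondrial pool, the CYTB, ND1 and COX1 parts of sgRosa replicate 4 were unlike those of the other 6 libraries. The CYTB part of the members' counts was 48.3, 49.4 and 46.7% (sgRosa replicates 1 to 3) and 50.5, 53.6 and 50.1% (sgNr2f2 libraries), but 25.02% in sgRosa replicate 4. ND1 made up 22.2, 21.97 and 21.5% (sgRosa replicates 1 to 3) and 16.9, 17.4 and 19.7% (sgNr2f2 libraries), but 38.3% in sgRosa replicate 4. Neither part overlapped between the groups, with ND1 lower and CYTB higher in sgNr2f2. The small ND3 part was also lower without overlap. These are parts of 1 sum, in which ND1 and CYTB together made up 63.3 to 71.4% in sgRosa. The ND1 and CYTB parts are therefore not independent, and on the CPM scale the groups overlapped for CYTB. The parts were not tested, and no share over all genes can be set beside them. The COX1 part was 16.3% for sgRosa replicate 4, against 6.72 to 10.6% elsewhere. Over all libraries ND4 ran from 7.66 to 9.83%, ND2 from 4.96 to 7.85% and ND5 from 4.93 to 7.05%.

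The ratio of CYTB to ND1 counts, a ratio picked after the values were seen and not tested, was 2.18, 2.25, 2.17 and 0.654 in sgRosa and 2.99, 3.07 and 2.54 in sgNr2f2. The sgNr2f2 values all exceeded the control values. Both genes share 0% of their windows with other annotated transcripts. Relative to the mitochondrial pool, that is with the members' summed counts as the library size, the log2 fold change was -0.53 for ND1 and 0.28 for CYTB (edgeR adjusted p = 0.910 and 0.942), and neither passed.

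Nuclear genes for subunits of the same complexes also lay on the lower side, and none passed. Of 71 nuclear genes of complexes I, III, IV and V, all tested, edgeR called 0. A log2 fold change below 0 was found for 62 of them, against 56.2% of all genes. Their median was -0.54, against -0.11 over all genes. Without sgRosa replicate 4, 54 of the 71 were below 0, beside 7402 of all 14096 genes then tested. The medians were then -0.17 and -0.03 in edgeR, and -0.14 and -0.10 in DESeq2. The summed CPM of the 71 genes was 4498, 6852, 7465 and 11254 in sgRosa and 5720.0, 5014 and 6301 in sgNr2f2, so sgRosa replicate 4, low in CYTB, ND2 and ND5, had the highest nuclear sum.

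By complex, the side was lower for 32 of 36 genes of complex I (median -0.66), 8 of 9 of complex III (-0.49), 9 of 11 of complex IV (-0.54) and 13 of 15 of complex V (-0.25). Without sgRosa replicate 4 these medians were -0.16, -0.08, -0.50 and -0.13, against -0.03 over all genes. Complex II, which has no mitochondrially encoded subunit, had 2 of 4 on the lower side (-0.13). None of the 3 most abundant subunit genes of each complex passed, and their groups overlapped. Cox4i1, of complex IV, lay at 848 ± 494 CPM in sgRosa (SD, n = 4) and 687 ± 192 CPM in sgNr2f2 (SD, n = 3). Atp5b, the catalytic beta subunit of ATP synthase, lay at 320.3 ± 151 and 371 ± 38.3 CPM, and Cox6a1 at 292 ± 159 and 328 ± 117 CPM. Ndufb9, Ndufb8 and Ndufb10, of complex I, had log2 fold changes of -0.28, 0.01 and -0.47. Those of Uqcrc1, Uqcrh and Uqcrq, of complex III, were -0.67, -0.49 and -0.41. Cox8a, of complex IV, stood at 0.05, and Atp5j and Atp5a1, of complex V, at -0.09 and -0.18. Uqcrc1 stood at 0.40 without sgRosa replicate 4, where it had 700.1 CPM against 115 to 183 CPM in the other libraries.

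The nuclear subunit genes with an unadjusted p under 0.05 numbered 3 of 71, all on the lower side, where 2.82% of all genes were, and they were singled out after their values were seen. Atp5k had 22.6, 38.2, 39.0 and 48.6 CPM in sgRosa and 15.4, 19.0 and 10.7 CPM in sgNr2f2. Its log2 fold change was -1.30 (SE 0.42, edgeR adjusted p = 0.868). For Atp5e it was -0.93 (SE 0.37) and for Ndufb2 -1.04 (SE 0.47), and neither passed. The groups did not overlap in any of the 3, and there were 5 such genes on the lower side among the 71, against 3.9% of all genes. Cox7c, also named after its values were seen, was the nuclear subunit gene that DESeq2 called lower without sgRosa replicate 4 (log2 fold change -1.26, adjusted p = 0.0177), as it did 0.749% of all genes. edgeR on all 7 libraries did not call it (log2 fold change -0.91, adjusted p = 0.882). It had 45.9, 78.2 and 89.7 CPM (sgRosa replicates 1 to 3) and 26.5, 29.2 and 31.7 CPM (sgNr2f2 libraries), but 5.31 CPM in sgRosa replicate 4.

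The mitochondrial transcripts exceeded those of the nuclear subunits in every library. The log2 ratio of the members' summed CPM to that of the 71 nuclear genes was 4.72, 4.12, 4.58 and 2.96 in sgRosa and 4.09, 4.54 and 4.39 in sgNr2f2. The group difference was 0.24, within the SD of sgRosa (0.80), and it was -0.14 without sgRosa replicate 4. For complex III it was 6.71, 6.27, 6.79 and 3.70 in sgRosa and 6.20, 6.63 and 6.68 in sgNr2f2. For complex V, where ATP6 was the member and nearly empty, it was -12.1 to -8.37 over the 7 libraries.

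Of the nuclear genes that read, process and translate mitochondrial DNA and RNA, none passed edgeR's adjusted test. Beside these lists, 56.2% of all genes were below 0, with a median of -0.11, which was -0.03 without sgRosa replicate 4. The mitochondrial ribosome genes leaned lower, with 67 of 77 below 0 and a median of -0.50, which was -0.14 without sgRosa replicate 4. Mrpl32, Mrpl49 and Mrps35 had the smallest p there, with log2 fold changes of -0.82 (SE 0.38), -1.03 (SE 0.48) and -1.10 (SE 0.52). Translation factors and tRNA synthetases were below 0 in 11 of 16 (median -0.24). Their summed level was 181, 191, 182 and 608 CPM for the sgRosa libraries and 165, 163 and 158 CPM for the sgNr2f2 libraries, without overlap. Lars2, a mitochondrial leucyl-tRNA synthetase, gave most of the highest value, with 447 CPM in sgRosa replicate 4 and 34.3 to 51.2 CPM elsewhere. Its log2 fold change moved from -1.91 to -0.27 without that library. Taken singly, 0 of the 16 translation factor and tRNA synthetase genes had groups without overlap.

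The genes for transcription and copying of mitochondrial DNA were below 0 in 10 of 17 tested (median -0.05), and in 13 without sgRosa replicate 4 (median -0.25). Tfb1m, a mitochondrial RNA methyltransferase related to a transcription factor, had 1.64, 1.41, 2.04 and 2.04 CPM in sgRosa and 0.121, 0 and 0.967 CPM in sgNr2f2. It had only 124 counts in all and, like COX2, passed the filter on low counts only through sgRosa, where it was higher. Its log2 fold change of -2.27 (SE 1.12, edgeR adjusted p = 0.868) is therefore uncertain. For Mterf4, which acts on mitochondrial ribosome assembly, the log2 fold change was -1.78 (SE 0.73), and -0.76 without sgRosa replicate 4. Among 23 genes of mitochondrial RNA processing and stability, 14 were below 0 (median -0.12), and 16 without sgRosa replicate 4 (median -0.37). Slirp, which binds LRPPRC and stabilises mitochondrial messages, had 11.8, 18.5, 20.2 and 12.9 CPM in sgRosa and 7.92, 8.73 and 7.31 CPM in sgNr2f2, with no overlap. Its log2 fold change was -0.99 (SE 0.39), with an edgeR adjusted p of 0.868. Slirp was named for a small p in its list. There, 1 of the 23 genes did not overlap on the lower side, against 3.9% of all genes.

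Complex assembly factors were below 0 in 27 of 34 tested (median -0.40), and in 24 without sgRosa replicate 4 (median -0.19). Ndufaf4, an assembly factor of complex I, had means of 16.0 ± 1.16 (sgRosa) and 9.21 ± 0.965 CPM (sgNr2f2), without overlap (log2 fold change -0.79, SE 0.36). It was named for a small p in its list. Of the 34 tested there, 2 did not overlap on the lower side, against 3.9% of all genes. Markers of mitochondrial content, such as the outer membrane channels and citrate synthase, were below 0 in 10 of 18 (median -0.15), and in 9 without sgRosa replicate 4 (median -0.01). The import receptor gene Tomm22 lay at 23.5 ± 2.95 and 16.9 ± 1.01 CPM.

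Lists of regulators did not share the lower side. Of 11 biogenesis regulators 7 were above 0 (median 0.26), with Yy1, a transcription factor, at 8.92 ± 1.52 and 14.9 ± 2.25 CPM without overlap. Of 13 mitochondrial stress response genes 6 were below 0 (median 0.39), and 1 was without sgRosa replicate 4 (median 0.43). Those above 0 included Asns, asparagine synthetase, at 11.5 ± 3.41 and 19.1 ± 4.00 CPM. Of 12 mitophagy and dynamics genes 6 were above 0 (median 0.09, and 0.03 without sgRosa replicate 4). Optn, an autophagy receptor, lay at 12.4 ± 2.34 and 21.3 ± 1.45 CPM and Mfn1, a mitochondrial fusion GTPase, at 33.6 ± 15.2 and 55.3 ± 2.57 CPM, both without overlap. Yy1, Optn and Mfn1 were named for a small p within their lists. Of all 14412 genes tested, 635 likewise did not overlap on the higher side. Ppargc1b and Hspe1, named in the same way from the biogenesis and stress response lists, lay on the lower side. Their log2 fold changes were -0.87 (SE 0.58) and -0.77 (SE 0.42). None of Yy1, Ppargc1b, Asns, Hspe1, Optn and Mfn1 passed (edgeR adjusted p = 0.868 for each).

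**Figure D4:**
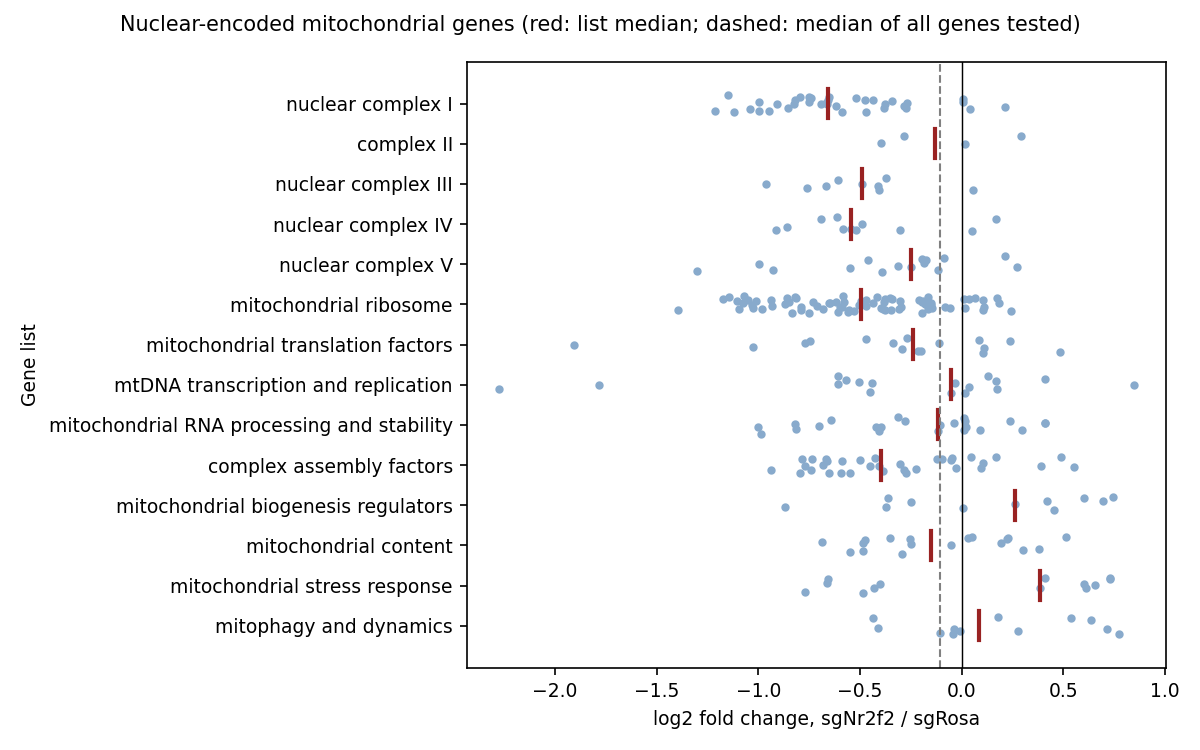
log2 fold change of sgNr2f2 against sgRosa for nuclear-encoded mitochondrial genes, 1 point per gene, by list, with the list median in red and the median of all genes tested (-0.11) dashed. The complex I, ribosome, complex III and complex IV medians run from -0.66 to -0.49, and those of the regulators and the stress response are 0.26 and 0.39.

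The genes whose log2 CPM followed the members' summed level most closely over the 7 libraries, out of 5110 nuclear genes with a mean of at least 20 CPM, were Rspry1, Eea1, Sec62, Psmd14, Psma3, Bend6, Rb1cc1 and Ran. Pearson r was 0.936 for Rspry1 and 0.883 for Ran, and it was 0.969 and 0.908 without sgRosa replicate 4. For the others it fell without that library. Eea1 went from 0.909 to 0.857, Sec62 from 0.902 to 0.845 and Psmd14 from 0.900 to 0.843. Psma3 went from 0.899 to 0.841, Bend6 from 0.889 to 0.860 and Rb1cc1 from 0.884 to 0.879. These genes include 2 proteasome subunits (Psmd14 and Psma3), the early endosome tether Eea1 and the nuclear transport GTPase Ran. The most opposite were Ppie, Edem2, Dhx29 and Tmem50b, with r from -0.917 to -0.876, and from -0.872 to -0.801 without sgRosa replicate 4. These are the ends of a ranking over many genes in few libraries that share their scaling, and they are given as a description only.

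Total counts ran from 6266897 in sgRosa replicate 4 to 20928677 in sgNr2f2 replicate 3. sgRosa replicate 4 stood apart, with a mean correlation of 0.723 with the other libraries against 0.876 to 0.900 for the others. Against the neuron label, the 14 oligodendrocyte markers summed to 23119 to 409799 CPM per library and the 14 neuron markers to 461 to 1700.2 CPM. In sgRosa replicates 1 to 4 the oligodendrocyte sum was 98214, 317731, 347806 and 23119 CPM and in sgNr2f2 330314, 166319.7 and 409799 CPM. The neuron sum was 777, 461, 728 and 1700.2 CPM in sgRosa and 643, 495 and 608 CPM in sgNr2f2. sgRosa replicate 4 thus had the highest neuron sum and the lowest oligodendrocyte sum. With those markers left out of the total, the mitochondrial share was 16.7 ± 4.62% in sgRosa and 14.5 ± 1.57% in sgNr2f2. The 6 erythroid markers summed to 31551 CPM in sgRosa replicate 4 and 1048 to 3061 CPM in the others. The 6 nuclear-retained RNAs, Malat1 and Meg3 among them, ranged from 2471 to 8961 CPM among sgRosa libraries and from 1345 to 2130.3 CPM among sgNr2f2 libraries. All oligodendrocyte, neuron, astrocyte and endothelial markers had counts in every library. The part of these differences in the mitochondrial levels was not tested. The target gene, Nr2f2, lay at 15.1 ± 3.76 and 11.8 ± 0.224 CPM (log2 fold change -0.36, SE 0.37). It did not pass (edgeR adjusted p = 0.905), and the groups overlapped. sgRosa replicate 3, at 11.3 CPM, lay below every sgNr2f2 library.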

How the data were processed

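RNA-seq counts were measured in 7 libraries, 4 sgRosa and 3 sgNr2f2. The authors deposited raw counts by gene symbol as a table of the series, and 7 single-library files held the same values. The submitters' processing notes list the build mm10 and, in no order, featureCounts 2.0.1, STAR 2.7.5c, edgeR 3.42.4, MultiQC 1.11, fastp 0.23.2 and FastQC 0.11.9. Not given in the sources used here are the annotation, the strand setting, the read length and the handling of reads with several matches. Reads of overlapping genes (ATP8 and ATP6, ND4L and ND4, ND5 and ND6) can have been exchanged or dropped.

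From these counts, edgeR 4.0.16 in R 4.3.3 fitted the quasi-likelihood test on all genes that passed its low-count filter (14412 of 35976), with TMM factors and no term besides group. Benjamini-Hochberg adjustment ran over all genes tested, with a threshold of 0.05. DESeq2 1.42.0 and limma-voom (limma 3.58.1), other scalings, no filter, a replicate block and leaving out each library were alternatives. Levels are TMM-scaled CPM, and log2 CPM used a prior count of 2. The test was tried on simulated data first, where it missed most of the changes put in.

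Gene coordinates are from RefSeq (GRCm38.p6) and GENCODE M21, which gave the same positions for the 13 genes. Sequences printed are from the GENCODE M21 transcripts. Nearest copies were found with blastn 2.17.0+. No 2 libraries of a group agreed within sampling noise. No molecular identifiers are named, so reads may be PCR copies of a molecule. The members and lists were chosen with earlier results of these data known. Genes named are all members, the 3 most abundant nuclear subunits of each complex, the 3 genes of smallest p in each other list, and the ends of the likeness ranking, not all of which are printed. Any other is marked.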

Additional observations from a re-analysis of the deposited data

Results flagged for a closer look

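In groups of 4 libraries, a value was marked when its gap to the nearest other value as a part of the group's range, exceeded Dixon's 95% critical value, which chance gives in about 1 in 20 groups. Of 54 measures looked at in sgRosa, 10 were marked, and they are not independent, since 9 rest on sgRosa replicate 4.

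In that library ND1 made up 38.3% and CYTB 25.02% of the members' counts, the CYTB to ND1 ratio was 0.654, the COX1 to CYTB ratio was 0.651 (0.136 to 0.211 in the other libraries), and the log2 ratio of CYTB to the nuclear complex III genes was 3.70. The mitochondrial ribosome genes summed to 3290.0 CPM there, the mitochondrial translation factors to 608 CPM, the erythroid markers to 31551 CPM and the nuclear-retained RNAs to 8961 CPM. The mark outside that library was the sum of choroid plexus and ependyma markers, 909 CPM in sgRosa replicate 2.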

How the results depend on the processing

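edgeR called 0 of the 10 mitochondrial genes and 0 of the 71 nuclear subunit genes under each of its alternatives: other scaling, no filter on low counts, the replicate block, and each library left out in turn. DESeq2 and limma-voom on all 7 libraries also called 0 of either (DESeq2 gave an unadjusted p for 69 of the 71). DESeq2 without sgRosa replicate 4, added after the data were seen, called 1 mitochondrial gene (ND3) and 1 nuclear subunit gene (Cox7c).

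With the replicate number of the labels as a block, the log2 fold changes were -1.20 for ND3, -0.16 for CYTB and 0.032 for COX1, with 0 members called. The labels do not say that the numbers pair the libraries. The correlations of same-numbered deviations were -0.27, -0.33 and 0.059, and not every library correlated best with its own number. With so few libraries, these values cannot show whether libraries of the same number were paired.

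The sign changed in these cases, none of them called, and the cause was not tested. CYTB was -0.070 with library size alone, -0.14 with DESeq2 without sgRosa replicate 4 and -0.17 with limma-voom without it. COX1 was 0.027 with DESeq2 and 0.028 with limma-voom without that library. ND5 was 0.16 when scaled to the mitochondrial counts and 0.087 with limma-voom. With 1 library left out, ND4 ran from -0.35 to 0.11, ND5 from -0.21 to 0.33, CYTB from -0.17 to 0.40 and COX1 from -0.25 to 0.0014. The mitochondrial to nuclear log2 ratio differed by 0.24 between groups over all complexes and by -1.10 for complex V alone, which rests on the few ATP6 counts. ND3 kept a log2 fold change from -1.45 to -1.08 with 1 library left out. With windows of 50 or 100 bases the shared share was 97.6 to 100% for COX2, COX3, ATP6 and ND3, and for COX1 it was 51.1 and 30.8%. Depth limits COX2, COX3 and ATP6, which had 0 to 77 counts per library.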
